A study of Mus musculus with 12 samples.

Results

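The genes Pdgfra, Pdgfrb, Cd34, Ly6a, Dpp4, Pi16, Thy1 and Zfp423 encode surface and nuclear markers of fat cell precursors and fibroblasts, and their RNA was followed in cultured mouse fat cells that received a let-7 mimic. The 8 genes were chosen by name, and all 8 were found among the 15754 genes of the deposited count table. RNA of cells labelled primary white adipocytes had been sequenced as 12 libraries, with 4 each for a let-7d-5p mimic, a let-7e-5p mimic and a negative control. All donors were male wild-type C57BL/6 mice on chow, 8 weeks old, and the cells came from the stromal vascular fraction of epididymal fat, a mixed population of precursors, vascular cells and immune cells. Every group, controls included, had been induced with insulin (850 nM), IBMX (250 µM), dexamethasone (1 µM) and the PPARG agonist rosiglitazone (1 µM), received its RNA by lipid transfection at day 4 and was collected at day 7. The mimics are short synthetic RNAs that act for a limited time in the cells they enter, and the labels state neither the share of cells reached nor whether animals were pooled.

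Fat cell precursors are fibroblast-like cells that lie in the connective tissue and along the vessels of fat. In mouse fat, an early population carries Dpp4 and Pi16 and gives rise to more committed preadipocytes, which lose these markers and raise fat cell genes as they differentiate. The PDGF receptors pass growth signals that keep precursors dividing, Cd34, Ly6a and Thy1 are surface proteins used to sort them, and Zfp423 is a nuclear factor of the preadipocyte state. MicroRNAs of the let-7 family pair through their seed, bases 2 to 8, with messages that are then degraded or translated less.

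The 2 mature microRNAs are shown because they carry the same seed and because that seed is the sequence sought in the markers below. They are given 5′ to 3′ from RefSeq on GRCm38.p6, with the seed in capitals.
let-7d-5p: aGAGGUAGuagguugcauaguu
let-7e-5p: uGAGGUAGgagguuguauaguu
The let-7d-5p sequence lies at chr13:48536078-48536099 on the minus strand and that of let-7e-5p at chr17:17830366-17830387 on the plus strand. They differ at 3 of 22 bases, written as the let-7d base, its position from the 5′ end and the let-7e base: A1U, U9G and C16U. The reverse complement of the seed in a message is CTACCTC.

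None of the 8 markers (0 of 8) held CTACCTC in its annotated 3′ UTR, and 10.5% of the 13547 genes with an annotated 3′ UTR did. These 3′ UTRs ran from 385 to 3115 bases. The shorter match to bases 2 to 7, TACCTC, occurred once in Pdgfrb and once in Cd34, 2 of 8 markers, beside 26.7% of all these genes. These are descriptions of letters in the annotated windows. Genes of the wider precursor lists that fell with a mimic and do hold the match are shown next to Hmga2, a let-7 target of the literature, with the match in capitals inside 30 bases of the 3′ UTR.
Hmga2: acattcaatttCTACCTCagcatcagttgg
Cbl, first match: tgaatgttttcCTACCTCacatcatgagaa
Cbl, second match: tgctcttcccgCTACCTCttacccagtagt
Prrx1: ctatctaaattCTACCTCatggctcaagca
Gdf10: ttcatgaaatgCTACCTCccaattcctggg

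Hmga2, on chromosome 10, holds its shown match at bases 58 to 64 of the 3′ UTR and 3 more further on. Cbl, on chromosome 9, encodes a ubiquitin ligase that removes activated PDGF receptors from the surface, and its matches lie at bases 3766 to 3772 and 6930 to 6936 of an 8469-base 3′ UTR. Prrx1, on chromosome 1, encodes a homeobox factor of mesenchymal cells. Gdf10, on chromosome 14, encodes a BMP family ligand of stromal cells. The match also occurs in Zfp521, which fell with let-7d, and in Lrig1, Pdgfb, Col1a1, Col1a2 and Col3a1, which were called with neither mimic. The other genes of these wider lists called lower with a mimic held no match. Among them were Fbn1, Vcam1, Col15a1, Fmo2, Itgav, Ebf2, Ptpn11, Shc1, Plat, Lum and Postn. Whether the match had a part in any fall was not tested.

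Total counts per library ran from 15071299 to 33396316. By the numbering of their identifiers, replicates 1 and 2 of the 3 groups form one block, ID run 1, and replicates 3 and 4 form another, ID run 2. The first principal component, with 81.9% of the variance, separated the runs. What distinguishes them is not stated in the labels, so every comparison of mimic with control carried a term for the run and was repeated within each. Known let-7 targets were lower with the labelled mimics. Of 14 measured, 9 fell with let-7d and 6 with let-7e, beside 9.81% and 5.69% of all genes, and 0 rose, with medians of -0.37 and -0.18. Among them, Hmga2, a chromatin protein, fell by 0.84 ± 0.098 on the log2 scale with let-7d (adjusted p = 4.73e-05) and by 0.59 ± 0.095 with let-7e (adjusted p = 0.00105), and Dicer1, the nuclease of microRNA maturation, fell by 0.52 ± 0.061 and 0.45 ± 0.061 (adjusted p = 4.84e-05 and 2.13e-04). Here and below, ± beside a log2 change is its standard error (SE), p-values are those of edgeR's quasi-likelihood test adjusted over all 15754 genes, and called genes are those whose adjusted p was under 0.05. Fat cell markers were measured in both runs, at lower levels in ID run 2. Adipoq, the adipokine adiponectin, had 336 to 521 CPM, the count scaled to library size, in ID run 2 and 1280 to 1500 CPM in ID run 1. Plin1, a lipid droplet coat protein, had 104 to 155 CPM and 1280 to 1610 CPM in the same order.

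**Figure D1:**
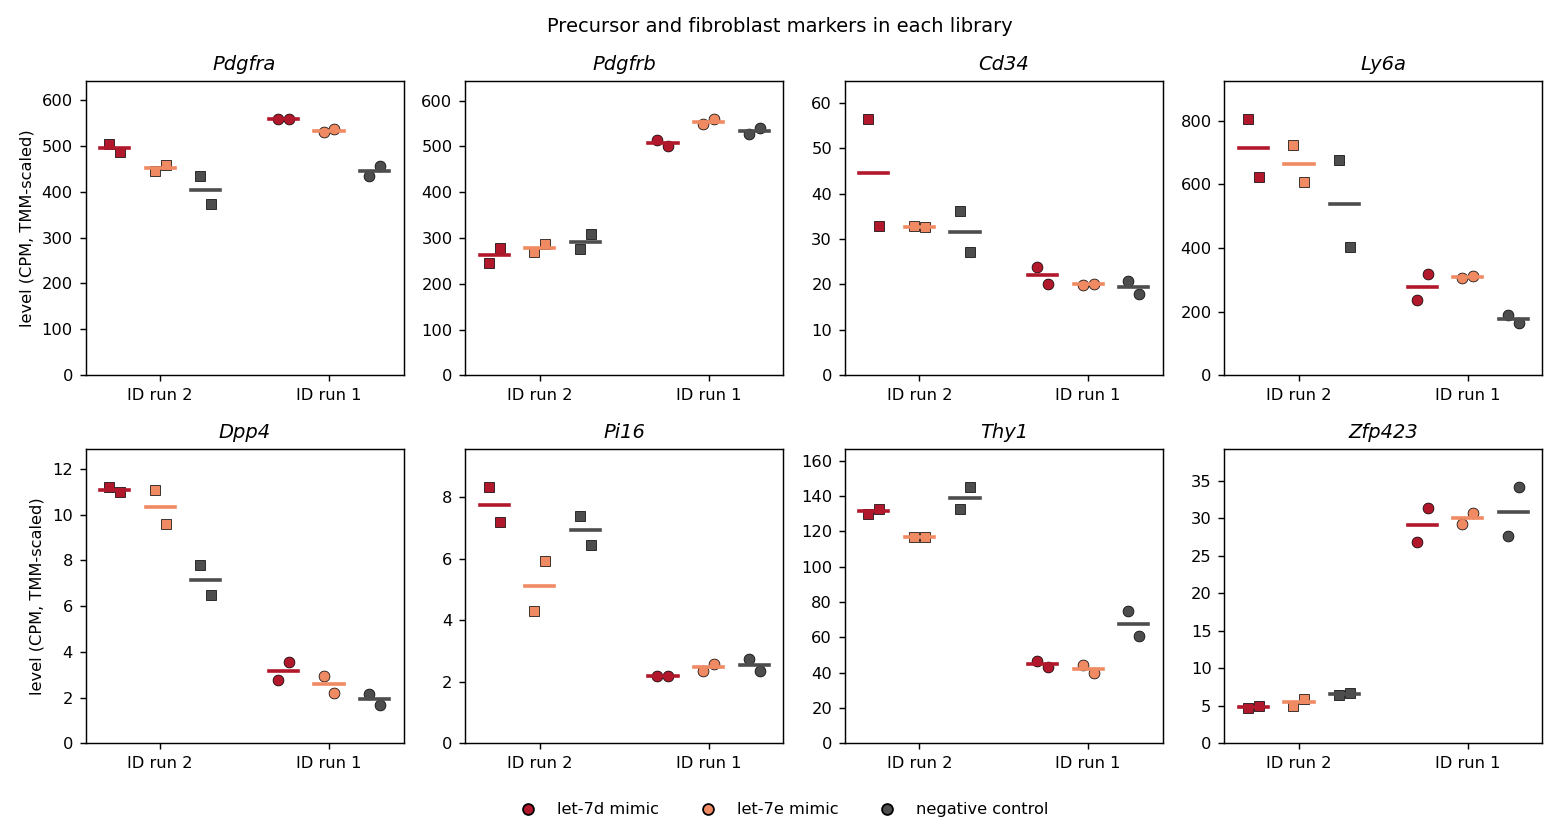
Levels of the 8 markers in each library, in CPM after TMM scaling (vertical axes, from 0), by ID run and group. Each point is 1 library and each bar the mean of 2. Pdgfra and Dpp4 of both mimics lie above the controls in both runs, and Thy1 of both mimics lies below them in ID run 1.

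With let-7d, 4 of the 8 markers were called, beside 16.2% of all genes tested: Pdgfra, Ly6a and Dpp4 rose (3 of 8, where 6.41% of all genes rose) and Thy1 fell (1 of 8, where 9.81% fell). With let-7e, Pdgfra, Ly6a and Dpp4 rose and Thy1 fell, 4 of 8 beside 9.50% of all genes, of which 3.81% rose and 5.69% fell. Pdgfrb, Cd34, Pi16 and Zfp423 did not pass the threshold with either mimic. The median change of the 8 markers was 0.17 with let-7d and 0.018 with let-7e on the log2 scale, where the medians of all genes were -0.0022 and -0.0019. Both comparisons use the same 4 control libraries, so they are not independent of each other. In bulk RNA, more or fewer cells of a type and more or less RNA per cell cannot be told apart. Counts of other gene lists over both runs stand beside the same 16.2% and 9.50% of all genes. Within ID run 2, 3.29% of all genes rose and 5.26% fell with let-7d, and 0.914% rose and 1.56% fell with let-7e. In ID run 1, 4.59% rose and 6.28% fell with let-7d, and 3.10% rose and 4.02% fell with let-7e.

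**Figure D2:**
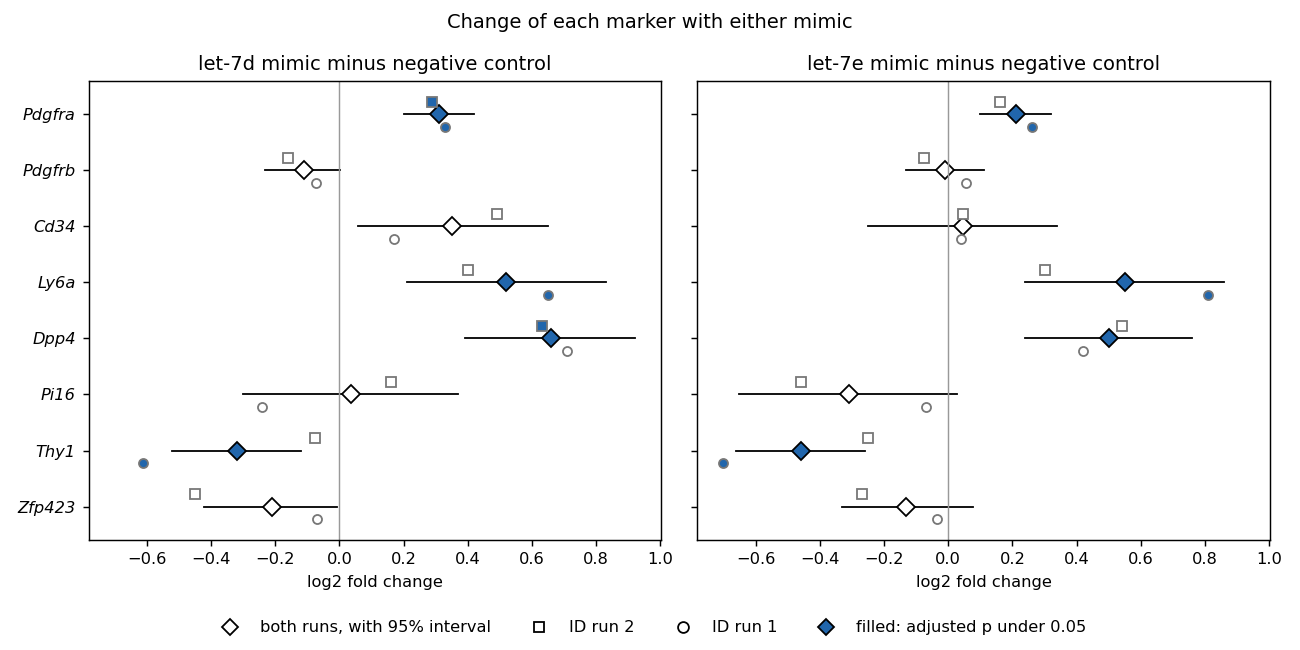
Log2 fold change of each marker, let-7d mimic (left) and let-7e mimic (right) minus negative control, with the 95% interval over both runs as a line and the changes within each run as smaller symbols. Filled symbols have an adjusted p under 0.05. Dpp4 has the largest rise with let-7d, 0.66, and Ly6a with let-7e, 0.55.

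The 2 PDGF receptors did not move alike. Pdgfra, the receptor tyrosine kinase for PDGF-A and other PDGF dimers and the usual pan-precursor marker of mouse fat, had 503 and 486 CPM with let-7d, 444 and 457 CPM with let-7e and 433 and 374 CPM in controls of ID run 2. In the first run its levels were 557 and 557 CPM with let-7d, 529 and 536 CPM with let-7e and 434 and 455 CPM in controls. Every library of either mimic lay above both controls of its own run. Pdgfra rose by 0.31 ± 0.052 with let-7d, 1.24-fold (adjusted p = 7.94e-04, edgeR), and by 0.21 ± 0.052 with let-7e, 1.16-fold (adjusted p = 0.0178). Leaving out any 1 library of the 2 groups kept the let-7d call (adjusted p up to 0.00358). The let-7e call was lost without let-7e replicate 1 or let-7e replicate 2 (adjusted p up to 0.0672).

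Within the runs, the let-7d rise of Pdgfra was 0.29 ± 0.072 in ID run 2 (adjusted p = 0.0218) and 0.33 ± 0.073 in ID run 1 (adjusted p = 0.0104). The let-7e rise was 0.16 ± 0.072 (adjusted p = 0.312) and 0.26 ± 0.073 (adjusted p = 0.0423) in the same order. These within-run calls were lost without control replicate 4 or let-7d replicate 3 in ID run 2 (adjusted p up to 0.215) and without control replicate 1 or let-7d replicate 1 or 2 in ID run 1 (adjusted p up to 0.0892). The let-7e call of ID run 1 was lost in 6 of 8 such fits (adjusted p up to 0.208). The effects in the 2 runs differed by -0.033 ± 0.10 with let-7d and -0.10 ± 0.10 with let-7e (adjusted p = 0.929 and 0.814).

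Pdgfrb, the receptor for PDGF-B and PDGF-D and a marker of perivascular precursors and mural cells, had 245 and 279 CPM with let-7d, 269 and 286 CPM with let-7e and 276 and 308 CPM in controls of ID run 2. ID run 1 had 514 and 502 CPM with let-7d, 549 and 559 CPM with let-7e and 527 and 540 CPM in controls. In the first run let-7d lay below and let-7e above the controls, and in the second the groups overlapped. Its change was -0.11 ± 0.055 with let-7d (adjusted p = 0.179) and -0.010 ± 0.055 with let-7e (adjusted p = 0.947), with intervals from -0.23 to 0.0026 and from -0.13 to 0.11.

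Per kilobase of exon, the ratio of Pdgfra to Pdgfrb was 1.12 and 0.953 with let-7d, 0.904 and 0.874 with let-7e and 0.859 and 0.663 in controls of ID run 2. The corresponding ratios in ID run 1 were 0.593 and 0.607, 0.527 and 0.525, and 0.45 and 0.461. The ratio was higher in every mimic library than in both controls of its run, which follows from the 2 genes' levels and was given no test of its own.

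Other genes of the PDGF pathway were called at a share near that of all genes. Of 14 measured ligands, receptors' partners and signal carriers, 0 rose and 3 fell with let-7d, and 0 rose and 2 fell with let-7e, beside the 16.2% and 9.50% of all genes called, among which falls also outnumbered rises. The median changes were -0.098 and -0.072. Cbl fell by 0.28 ± 0.063 with let-7d (adjusted p = 0.00615) and by 0.56 ± 0.063 with let-7e (adjusted p = 5.79e-05). Ptpn11, the phosphatase SHP2 that links the receptors to Ras, fell by 0.25 ± 0.046 with let-7d (adjusted p = 0.00164), and Shc1, an adaptor of the same route, by 0.16 ± 0.042 (adjusted p = 0.0184). Plat, the protease that activates PDGF-C, fell by 0.28 ± 0.081 with let-7e (adjusted p = 0.0390). The ligand genes Pdgfa and Pdgfb changed by -0.010 ± 0.067 and 0.12 ± 0.13 with let-7d and by -0.10 ± 0.066 and 0.053 ± 0.13 with let-7e (adjusted p = 0.944 and 0.592, and 0.401 and 0.863). Shc1 lost its call without control replicate 2 or let-7d replicate 1 or 2 (adjusted p up to 0.0556), and Plat lost it in 6 of the 8 fits that leave out a library of its 2 groups (adjusted p up to 0.129).

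Ly6a, which encodes the GPI-anchored surface protein Sca-1 of mouse precursors and responds to interferon, had 804 and 624 CPM with let-7d, 723 and 606 CPM with let-7e and 676 and 403 CPM in controls of ID run 2. Its levels in ID run 1 were 236 and 320 CPM with let-7d, 307 and 313 CPM with let-7e and 190 and 164 CPM in controls. Both mimics lay above the controls in the first run, and in the second both overlapped them, with control replicate 4 the lowest library. Ly6a rose by 0.52 ± 0.15 with let-7d, 1.43-fold (adjusted p = 0.0232, edgeR), and by 0.55 ± 0.15 with let-7e, 1.46-fold (adjusted p = 0.0262). These calls rest on few libraries: the let-7d call was lost without control replicate 1, 2 or 4 or let-7d replicate 2 or 3 (adjusted p up to 0.0784), and the let-7e call without control replicate 1, 2 or 4 or let-7e replicate 1, 2 or 3 (adjusted p up to 0.0836).

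For Ly6a the rise within ID run 2 was 0.40 ± 0.19 with let-7d and 0.30 ± 0.19 with let-7e (adjusted p = 0.216 and 0.504), and within ID run 1 it was 0.65 ± 0.20 and 0.81 ± 0.20 (adjusted p = 0.0459 and 0.0232). Both calls of ID run 1 were lost when any 1 of the 4 libraries they rest on was left out (adjusted p up to 0.381 and 0.124). With DESeq2's size factors the let-7d value of ID run 1 had an adjusted p of 0.0507. The difference between the runs was -0.25 ± 0.27 with let-7d and -0.50 ± 0.27 with let-7e (adjusted p = 0.744 and 0.624). Reads that also match close relatives of the Ly6 family may be split between genes by a counter whose handling of such reads is not given in the sources used here.

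The summed level of 14 interferon response genes was higher with both mimics than in controls in the first run, as that of Ly6a was, and in the second let-7d lay below the controls and let-7e overlapped them. Within each group of ID run 2, replicate 3 was above replicate 4 for the sum and for Ly6a alike. The sum was 2040 and 2020 CPM with let-7d, 2860 and 2170 CPM with let-7e and 2750 and 2250 CPM in controls of ID run 2, and 1150 and 1530, 1390 and 1540, and 1080 and 864 CPM in the same groups of ID run 1. Of the 14 genes, in ID run 2, 0 rose and 2 fell with let-7d (median -0.33, all 14 negative), and 0 were called with let-7e (edgeR; 1 at an unadjusted p under 0.05; median -0.055). Within ID run 1, 6 rose with let-7d and 7 with let-7e and 0 fell (medians 0.56 and 0.62, all 14 positive with each). Of all genes, 4.59% rose with let-7d and 3.10% with let-7e in that run. By the test of the difference between the runs, 0 of 14 were called for either mimic (edgeR and limma-voom; 13 for let-7d and 12 for let-7e at an unadjusted p under 0.05). Over both runs, which average these opposite values, 0 of the 14 were called with let-7d (edgeR; 0 also at an unadjusted p under 0.05, and 0 with DESeq2 and with limma-voom), and 1 rose with let-7e, Irf9, a subunit of the interferon-responsive transcription complex (0.23 ± 0.069, adjusted p = 0.0457), a call kept in 2 of 8 fits without 1 library. The part of interferon in the Ly6a levels was not tested.

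Cd34, a sialomucin carried by precursors and by endothelial cells, had 56.3 and 32.9 CPM with let-7d, 32.8 and 32.7 CPM with let-7e and 36.2 and 27.1 CPM in controls of ID run 2. It had 23.8 and 20.2 CPM with let-7d, 19.9 and 20.2 CPM with let-7e and 20.8 and 18 CPM in controls of ID run 1. Let-7d replicate 3 stood above the other libraries of its run, and each mimic overlapped the controls in both runs. The change was 0.35 ± 0.14 with let-7d (adjusted p = 0.0969) and 0.046 ± 0.14 with let-7e (adjusted p = 0.891). Without let-7d replicate 3 the let-7d value was 0.12 (adjusted p = 0.463), and without let-7d replicate 4 it was 0.47 and passed the threshold (adjusted p = 0.0263).

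Endothelial markers stood high in the same library. The summed level of 11 of them was 404 CPM in let-7d replicate 3 and 268 CPM in let-7d replicate 4, against 259 to 286 CPM with let-7e and 242 to 262 CPM in controls of that run. Their defining members Pecam1 and Cdh5, both junction proteins of the vessel wall, had 110 and 65.6 CPM in let-7d replicate 3, against 60.7 to 63.7 CPM and 42.7 to 43.9 CPM in the controls of ID run 2. Within ID run 2, 2 of the 11 were called higher with let-7d (edgeR; 6 at an unadjusted p under 0.05; median 0.37, 10 of 11 positive). Within ID run 1 it was 0 of 11 (0 at an unadjusted p under 0.05; median -0.022). Over both runs, no endothelial gene was called with let-7d (0 of 11 in edgeR, DESeq2 and limma-voom, 4 at an unadjusted p under 0.05) or with let-7e (0 of 11 with each tool, 0 at an unadjusted p under 0.05). Pecam1 changed by 0.29 ± 0.12 and 0.12 ± 0.12 with let-7d and let-7e (adjusted p = 0.115 and 0.618), and Cdh5 by 0.17 ± 0.11 and 0.037 ± 0.11 (adjusted p = 0.317 and 0.885). In ID run 1 the summed endothelial level was 317 to 367 CPM with let-7d, 346 to 367 with let-7e and 334 to 346 in controls. These sums exceeded those of every library of ID run 2 but let-7d replicate 3, whereas Cd34 was lower in ID run 1. The part of endothelial RNA in the Cd34 level was not tested.

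Thy1, the GPI-anchored protein CD90 of fibroblasts, was the only one of the 8 markers called lower. It had 130 and 133 CPM with let-7d, 117 and 117 CPM with let-7e and 133 and 145 CPM in controls of ID run 2. In ID run 1 it had 46.7 and 43.0 CPM with let-7d, 44.2 and 39.7 CPM with let-7e and 75.0 and 60.7 CPM in controls. Both mimics lay below the controls in the first run; in the second let-7e did and let-7d reached the lower control. Thy1 fell by 0.32 ± 0.094 with let-7d, to 0.798 of control (adjusted p = 0.0279, edgeR), and by 0.46 ± 0.094 with let-7e, to 0.726 of control (adjusted p = 0.00576).

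The fall of Thy1 was larger in the first run, but the difference between runs did not pass the test. Within ID run 2 the change was -0.076 ± 0.086 with let-7d and -0.25 ± 0.086 with let-7e (adjusted p = 0.642 and 0.163), and within ID run 1 it was -0.61 ± 0.094 and -0.70 ± 0.093 (adjusted p = 0.00121 and 6.36e-04). The difference between the 2 runs was 0.53 ± 0.13 for let-7d and 0.45 ± 0.13 for let-7e (adjusted p = 0.0827 and 0.295), and the let-7d difference passed without control replicate 2. The let-7d call over both runs was lost without control replicate 1 or 2 or let-7d replicate 1 or 2 (adjusted p up to 0.0978; the value without control replicate 1 was -0.20) and when only the let-7d and control libraries were fitted (adjusted p = 0.0655). The let-7e call held without any 1 library of its 2 groups (adjusted p up to 0.0277), and both calls of ID run 1 held likewise (adjusted p up to 0.0339 and 0.0175).

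Thy1 also occurs on T cells and on mural cells. Of 10 lymphocyte markers, 1 was in the table, Lck, a T cell kinase, at 1.63 to 2.05 CPM with let-7d, 2.05 to 2.62 CPM with let-7e and 2.62 to 3.20 CPM in controls of ID run 2 and under these levels in all 6 libraries of ID run 1. It changed by -0.57 ± 0.22 and -0.43 ± 0.21 with let-7d and let-7e (adjusted p = 0.0914 and 0.240). Of 10 pericyte and smooth muscle markers, 0 rose and 3 fell with either mimic over both runs. In ID run 2 alone, 1 rose and 0 fell with let-7d, and 0 rose and 1 fell with let-7e. Within ID run 1, 0 rose and 2 fell with let-7d, and 0 rose and 4 fell with let-7e. Their summed level was 4900 and 5310 CPM with let-7d, 5280 and 5170 CPM with let-7e and 6210 and 6480 CPM in controls of ID run 2, and 3080 and 2960, 2750 and 2990, and 4250 and 3320 CPM in the same groups of ID run 1.

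Myh11, the smooth muscle myosin heavy chain, fell by 0.35 ± 0.073 with let-7d and 0.51 ± 0.073 with let-7e (adjusted p = 0.00400 and 4.03e-04), and Acta2, smooth muscle actin, by 0.34 ± 0.077 and 0.36 ± 0.077 (adjusted p = 0.00674 and 0.00807). Des, the intermediate filament desmin, fell with let-7d by 0.27 ± 0.084 (adjusted p = 0.0379), and Notch3, a receptor of mural cells, fell with let-7e by 0.47 ± 0.11 (adjusted p = 0.0107). Leaving out 1 library ended the call of Des in 4 of 8 fits (adjusted p up to 0.119) and that of Notch3 without control replicate 2 (adjusted p = 0.0521). The first listed mural markers were Rgs5, a G protein regulator of pericytes, with -0.052 ± 0.15 and -0.14 ± 0.15 (adjusted p = 0.867 and 0.658), and Cspg4, the proteoglycan NG2, with -0.32 ± 0.13 and -0.24 ± 0.13 (adjusted p = 0.107 and 0.284). Whether mural or contractile cells contributed to the Thy1 levels was not tested.

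Dpp4 and Pi16, which mark the same early interstitial population in mouse fat, did not move together. Dpp4, the membrane peptidase CD26, had 11.2 and 11 CPM with let-7d, 11.1 and 9.59 CPM with let-7e and 7.78 and 6.50 CPM in controls of ID run 2. It had 2.79 and 3.54 CPM with let-7d, 2.95 and 2.22 CPM with let-7e and 2.17 and 1.67 CPM in controls of ID run 1. Every library of either mimic lay above both controls of its run. Dpp4 rose by 0.66 ± 0.12 with let-7d, 1.58-fold (adjusted p = 0.00209, edgeR), and by 0.50 ± 0.12 with let-7e, 1.41-fold (adjusted p = 0.0182).

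The Dpp4 level is low, with 24 to 373 counts per library. The let-7d call held without any 1 library of its 2 groups (adjusted p up to 0.0124), and the let-7e call was lost without let-7e replicate 1 or 3 or control replicate 4 (adjusted p up to 0.0867). Within ID run 2 its rise was 0.63 ± 0.15 with let-7d and 0.54 ± 0.15 with let-7e (adjusted p = 0.0192 and 0.0772), and within ID run 1 it was 0.71 ± 0.24 and 0.42 ± 0.24 (adjusted p = 0.0679 and 0.335). The call in ID run 2 was lost without control replicate 4 or let-7d replicate 3 (adjusted p up to 0.170). The difference between runs was -0.085 ± 0.28 with let-7d and 0.12 ± 0.28 with let-7e (adjusted p = 0.933 for both).

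Pi16, a secreted or membrane-bound protein of the CAP family, had 8.32 and 7.18 CPM with let-7d, 4.29 and 5.92 CPM with let-7e and 7.40 and 6.46 CPM in controls of ID run 2, from 33 to 220 counts per library over both runs. It had 2.19 and 2.18 CPM with let-7d, 2.35 and 2.58 CPM with let-7e and 2.74 and 2.36 CPM in controls of ID run 1. Let-7e lay below the controls in the second run only, and let-7d in the first run only. The changes were 0.036 ± 0.16 with let-7d (adjusted p = 0.913) and -0.31 ± 0.16 with let-7e (adjusted p = 0.266), with intervals from -0.30 to 0.37 and from -0.65 to 0.028.

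Other markers of the interstitial progenitor population changed in both directions. Of 14 measured, 2 rose and 1 fell with let-7d, and 1 rose and 1 fell with let-7e, beside the 16.2% and 9.50% of all genes called, with median changes of 0.074 and 0.045. Their summed level was 1710 and 1790 CPM with let-7d, 1520 and 1690 CPM with let-7e and 1710 and 1750 CPM in controls of ID run 2. In ID run 1 it was 2010 and 1990 CPM with let-7d, 2160 and 2220 CPM with let-7e and 2470 and 2320 CPM in controls, so that both mimics lay below the controls there. Efemp1, an extracellular matrix glycoprotein, rose by 0.60 ± 0.12 with let-7d (adjusted p = 0.00321), and Ccn5, a secreted matricellular protein, by 0.33 ± 0.10 (adjusted p = 0.0400). Dact2, a regulator of Wnt and TGF-beta signalling, rose with let-7e by 1.44 ± 0.34 (adjusted p = 0.0142), and its highest library had 1.2 CPM. Fbn1, the microfibril protein fibrillin 1, fell by 0.37 ± 0.068 with let-7d and 0.26 ± 0.068 with let-7e (adjusted p = 0.00183 and 0.0260). Removing 1 library ended the calls of Ccn5 with let-7d in 5 of 8 fits (adjusted p up to 0.131), of Fbn1 with let-7e in 6 of 8 (up to 0.0792) and of Dact2 without control replicate 4 or let-7e replicate 4 (up to 0.0607).

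Zfp423, a zinc finger transcription factor that raises the response of preadipocytes to BMP and holds white fat cells in their state, had 4.65 and 4.93 CPM with let-7d, 5.01 and 5.96 CPM with let-7e and 6.39 and 6.71 CPM in controls of ID run 2. It had 26.8 and 31.4 CPM with let-7d, 29.2 and 30.7 CPM with let-7e and 27.6 and 34.1 CPM in controls of ID run 1. Both mimics lay below the controls in the second run and overlapped them in the first. The changes did not pass the threshold, with -0.21 ± 0.097 for let-7d (adjusted p = 0.155) and -0.13 ± 0.096 for let-7e (adjusted p = 0.485). Without control replicate 1 the let-7d value was -0.33 and passed (adjusted p = 0.0280). Within ID run 2 the change was -0.45 ± 0.15 with let-7d (adjusted p = 0.0793), against -0.070 ± 0.11 within ID run 1, and the difference between the runs was -0.38 ± 0.19 (adjusted p = 0.400).

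Of 17 genes of BMP signalling, through which Zfp423 acts, 1 rose and 0 fell with either mimic, beside 16.2% and 9.50% of all genes. That gene was Bmpr1a, a type I BMP receptor, with 0.18 ± 0.052 for let-7d and 0.21 ± 0.052 for let-7e (adjusted p = 0.0284 and 0.0169). Of 14 measured transcription factors of precursors, 1 rose and 3 fell with let-7d, and 0 rose and 1 fell with let-7e. Ebf3, of the early B cell factor family, rose by 0.41 ± 0.10 with let-7d (adjusted p = 0.0132) while its relative Ebf2 fell by 0.24 ± 0.061 (adjusted p = 0.0150). Zfp521, a zinc finger relative and antagonist of Zfp423, fell by 0.23 ± 0.058 with let-7d (adjusted p = 0.0140). Prrx1 fell by 0.24 ± 0.045 with let-7d and 0.20 ± 0.044 with let-7e (adjusted p = 0.00173 and 0.0105). Without 1 library, Bmpr1a lost its let-7d call in 5 of 8 fits (adjusted p up to 0.0912) and its let-7e call without let-7e replicate 2 (adjusted p = 0.0672), and Ebf2 lost its call without let-7d replicate 4 (adjusted p = 0.0515).

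Markers of later or neighbouring stromal states included genes that rose and genes that fell; the lists as such were not tested. Among 12 genes of committed preadipocytes, 4 rose and 2 fell with let-7d, and 2 rose and 1 fell with let-7e, with medians of 0.039 and -0.019. The 6 called of 12 with let-7d stand beside 16.2% of all genes, and the 3 of 12 with let-7e beside 9.50%. Cxcl14, a chemokine, rose by 0.56 ± 0.13 with let-7d and 0.71 ± 0.13 with let-7e (adjusted p = 0.00929 and 0.00279), and Vcam1, an adhesion molecule, fell by 0.32 ± 0.063 and 0.26 ± 0.062 (adjusted p = 0.00261 and 0.0171). Col15a1, a basement membrane collagen, fell with let-7d by 0.37 ± 0.064 (adjusted p = 0.00107), while Ggt5, a gamma-glutamyltransferase, rose by 0.51 ± 0.14 (adjusted p = 0.0173). Lpl, lipoprotein lipase, rose by 0.21 with let-7d and by 0.26 ± 0.068 with let-7e (adjusted p = 0.0455 and 0.0247). Without 1 library, Vcam1 lost its let-7e call in 4 of 8 fits (adjusted p up to 0.0673), Lpl in 5 of 8 (up to 0.0755) and Ggt5 its let-7d call without control replicate 4 or let-7d replicate 3 (up to 0.0557). The let-7d call of Lpl was kept in 2 of 8 fits (adjusted p up to 0.134).

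Of 8 genes of CD142+ stromal cells, 1 rose and 1 fell with let-7d, and 1 rose and 2 fell with let-7e. Their median changes were 0.095 and -0.11. Their summed level was 4940 and 4960 CPM with let-7d, 4460 and 4730 CPM with let-7e and 4530 and 4220 CPM in controls of ID run 2, and 3790 and 3820, 3940 and 3990, and 3620 and 3550 CPM in the same groups of ID run 1. The let-7d sum lay above the controls in both runs and the let-7e sum in the first. Within ID run 1 most of the 8 genes went the other way, with 6 negative with let-7d and 5 with let-7e (medians -0.088 and -0.22). In ID run 2 the medians were 0.13 and -0.089. Mgp, matrix Gla protein, an inhibitor of calcification, had 805 and 712 CPM with let-7d, 527 and 607 CPM with let-7e and 416 and 319 CPM in controls of ID run 2. Levels of Mgp in ID run 1 were 131 and 131 CPM with let-7d, 146 and 138 CPM with let-7e and 75.4 and 69.8 CPM in controls, so neither mimic overlapped the controls in either run. It rose by 0.96 ± 0.10 with let-7d and 0.80 ± 0.10 with let-7e (adjusted p = 2.37e-05 and 1.60e-04). Gdf10 fell by 0.31 ± 0.098 and 0.43 ± 0.097 (adjusted p = 0.0413 and 0.0115). The let-7d value of Gdf10 lost its call in 7 of 8 fits without 1 library (adjusted p up to 0.149). Fmo2, a flavin monooxygenase, fell with let-7e by 0.72 ± 0.17 (adjusted p = 0.0154; 0.0520 without control replicate 3).

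Of 13 other surface proteins of precursors, 3 rose and 2 fell with let-7d, and 3 rose and 1 fell with let-7e. Cd9, a tetraspanin, rose by 0.49 ± 0.064 and 0.22 ± 0.064 (adjusted p = 1.00e-04 and 0.0384), and Itgav, the integrin alpha V chain, fell by 0.42 ± 0.057 and 0.25 ± 0.057 (adjusted p = 1.39e-04 and 0.0107). Ly6c1, of the same family as Ly6a, rose by 0.99 ± 0.17 and 0.62 ± 0.17 (adjusted p = 8.72e-04 and 0.0301), a value that is uncertain because a near-identical copy can share its reads. Ly6e, another relative, rose with let-7e by 0.47 ± 0.13 (adjusted p = 0.0360), and Nt5e, the ecto-nucleotidase CD73, rose with let-7d by 0.34 ± 0.099 (adjusted p = 0.0265). Calls were lost without 1 library in 5 of 8 fits for Nt5e with let-7d and for Ly6c1 with let-7e (adjusted p up to 0.0873 and 0.107), and in 6 of 8 for Cd9 and Ly6e with let-7e (up to 0.147 and 0.121).

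Among 12 general fibroblast genes, 2 rose and 2 fell with let-7d, and 1 rose and 1 fell with let-7e, with medians of 0.014 and 0.066. Lum, the proteoglycan lumican, fell by 0.53 ± 0.14 and 0.76 ± 0.14 (adjusted p = 0.0136 and 0.00226), and Mfap5, a microfibril protein, rose by 0.30 ± 0.067 and 0.28 ± 0.067 (adjusted p = 0.00654 and 0.0167). Postn, the matrix protein periostin, fell with let-7d by 0.27 ± 0.069 (adjusted p = 0.0136), and Dcn, the proteoglycan decorin, rose by 0.30 ± 0.096 (adjusted p = 0.0453). Without 1 library, Dcn lost its call in 5 of 8 fits (adjusted p up to 0.151), Lum its let-7d call in 2 (up to 0.0583), Postn in 1 (0.0566) and Mfap5 its let-7e call in 3 (up to 0.0633).

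The fat cell list itself held 13 measured genes. Within ID run 2, 5 of them fell with let-7d and 0 rose (edgeR; 8 at an unadjusted p under 0.05; median -0.36), and within ID run 1, 0 were called (2 at an unadjusted p under 0.05; median -0.0087). By the test of the difference between the runs, 0 of 13 were called for let-7d (edgeR and limma-voom; 5 at an unadjusted p under 0.05). Over both runs, 1 fell with let-7d, Lipe, hormone-sensitive lipase (-0.52 ± 0.11, adjusted p = 0.00365), and 0 were called with let-7e (edgeR, DESeq2 and limma-voom; 4 at an unadjusted p under 0.05). Adipoq changed by -0.12 ± 0.10 and -0.18 ± 0.10 and Plin1 by -0.21 ± 0.086 and -0.058 ± 0.086 with let-7d and let-7e (adjusted p = 0.481 and 0.311, and 0.103 and 0.750).

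**Figure D3:**
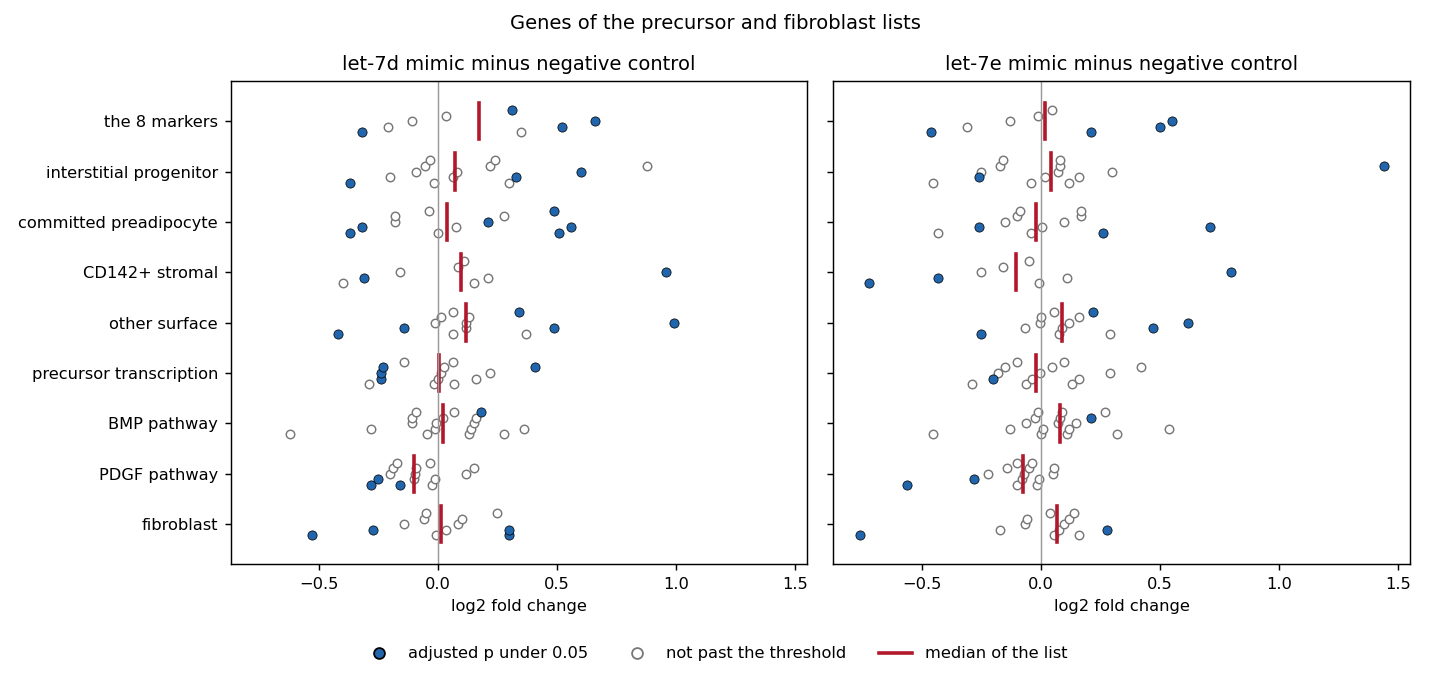
Log2 fold change of every measured gene of 9 lists, let-7d mimic (left) and let-7e mimic (right) minus negative control. Points are genes, filled where the adjusted p is under 0.05, and the bar is the list's median. Rises and falls occur side by side in most lists; in the PDGF pathway list every called gene fell (let-7d 3, let-7e 2).

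The 2 mimics were not told apart by any of the 8 markers. Between let-7d and let-7e, 0 of 8 were called with edgeR, with DESeq2 and with limma-voom, 2 of 8 at an unadjusted p under 0.05 (Cd34 and Pi16), and 0.152% of all genes were called. DESeq2 gave no adjusted p to Dpp4 and Pi16 here. Pdgfra was 0.10 ± 0.052 higher with let-7d than with let-7e (interval -0.0094 to 0.21, adjusted p = 0.580), and its libraries did not overlap in either run. Cd34 was 0.31 ± 0.14 higher (interval 0.017 to 0.60, adjusted p = 0.508), again without overlap in either run. Pi16 was 0.35 ± 0.16 higher (interval 0.011 to 0.68, adjusted p = 0.517). For Ly6a the difference was -0.029 ± 0.14 (interval -0.34 to 0.28), for Dpp4 0.16 ± 0.12 (interval -0.091 to 0.41) and for Thy1 0.14 ± 0.094 (interval -0.062 to 0.34). For Pdgfrb it was -0.10 ± 0.055 (interval -0.22 to 0.013) and for Zfp423 -0.088 ± 0.096 (interval -0.29 to 0.12). An adjusted p above the threshold does not show that the mimics act alike.

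Counted by overlap alone, 2 of 8 markers (Pdgfra and Dpp4) had all let-7d libraries on one side of the controls in both runs, where 23.8% of all genes did. With let-7e they were 3 of 8 (Pdgfra, Dpp4 and Thy1) beside 19.1% of all genes. Between let-7d and let-7e they were 2 of 8 (Pdgfra and Cd34) beside 12.9%.

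Differences between ID run 2 and ID run 1 were larger than those with either mimic for every marker but Pdgfra. All 8 were called, 5 higher and 3 lower in ID run 2, beside 81.7% of all genes (41.7% higher and 40.0% lower), so the count alone says little about the markers. Dpp4 was higher in ID run 2 by 1.88 ± 0.10, Pi16 by 1.43 ± 0.13, Ly6a by 1.35 ± 0.12, Thy1 by 1.35 ± 0.078 and Cd34 by 0.81 ± 0.11. Pdgfra changed by -0.18 ± 0.042, Pdgfrb by -0.94 ± 0.045 and Zfp423 by -2.43 ± 0.080. The largest adjusted p of these 8 was 7.50e-04. The other 14 interstitial progenitor genes did not follow Dpp4 and Pi16 as a group: 7 were called higher and 6 lower in ID run 2 (median 0.15), and their summed level was 1520 to 1790 CPM there, against 1990 to 2470 CPM in ID run 1.

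The summed level of the 13 fat cell genes was 4030 to 5830 CPM in ID run 2 and 18200 to 20400 CPM in ID run 1. All 13 were called lower in ID run 2 (median log2 change -3.26, from -4.70 to -1.46), beside 40.0% of all genes. Macrophage markers, 14 genes, summed to 64.1 to 151 CPM with let-7d, 48.7 to 76.2 CPM with let-7e and 26.9 to 39.1 CPM in controls of ID run 2, and to 233 to 354 CPM over the 6 libraries of ID run 1. Their first listed members are Adgre1, the receptor F4/80, with 4.12 and 0.722 CPM with let-7d, 0.715 and 1.70 CPM with let-7e and 0.752 and 0.164 CPM in controls of ID run 2, and Csf1r, the receptor for macrophage colony-stimulating factor, with 7.40 to 10.8 CPM there. Of the 14, 7 rose with let-7d within ID run 2 and 0 fell (edgeR; 13 at an unadjusted p under 0.05; median 2.01, all 14 positive), and 0 were called with let-7e (4 at an unadjusted p under 0.05; median 1.07). Within ID run 1, 0 rose and 2 fell with either mimic (medians -0.33 and -0.43). By the test of the difference between the runs, 0 of 14 were called for either mimic (edgeR and limma-voom; 13 for let-7d and 8 for let-7e at an unadjusted p under 0.05). Over both runs, Lyz2, lysozyme, and Cd68, a lysosomal membrane protein, rose with let-7d (1.10 ± 0.34 and 0.69 ± 0.22, adjusted p = 0.0374 and 0.0457), calls that DESeq2 and limma-voom did not make and that leaving out 1 library ended in 3 and 5 of 8 fits (adjusted p up to 0.113 and 0.105). With let-7e, 0 of 14 were called over both runs (edgeR, DESeq2 and limma-voom; 0 at an unadjusted p under 0.05). Adgre1 changed by 0.46 ± 0.39 and 0.091 ± 0.38 and Csf1r by -0.11 ± 0.15 and -0.14 ± 0.15 with let-7d and let-7e (adjusted p = 0.470 and 0.926, and 0.694 and 0.640). Mesothelial markers, 7 genes, summed to 42.7 to 66.7 CPM over all libraries and 0 were called with either mimic (edgeR, DESeq2 and limma-voom; 0 at an unadjusted p under 0.05); the first of them, Msln and Upk3b, changed by 0.37 ± 0.24 and 0.22 ± 0.13 with let-7d and 0.18 ± 0.24 and 0.16 ± 0.13 with let-7e (adjusted p = 0.330 and 0.273, and 0.728 and 0.513). The part of these cell types in the marker levels was not tested.

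**Figure D4:**
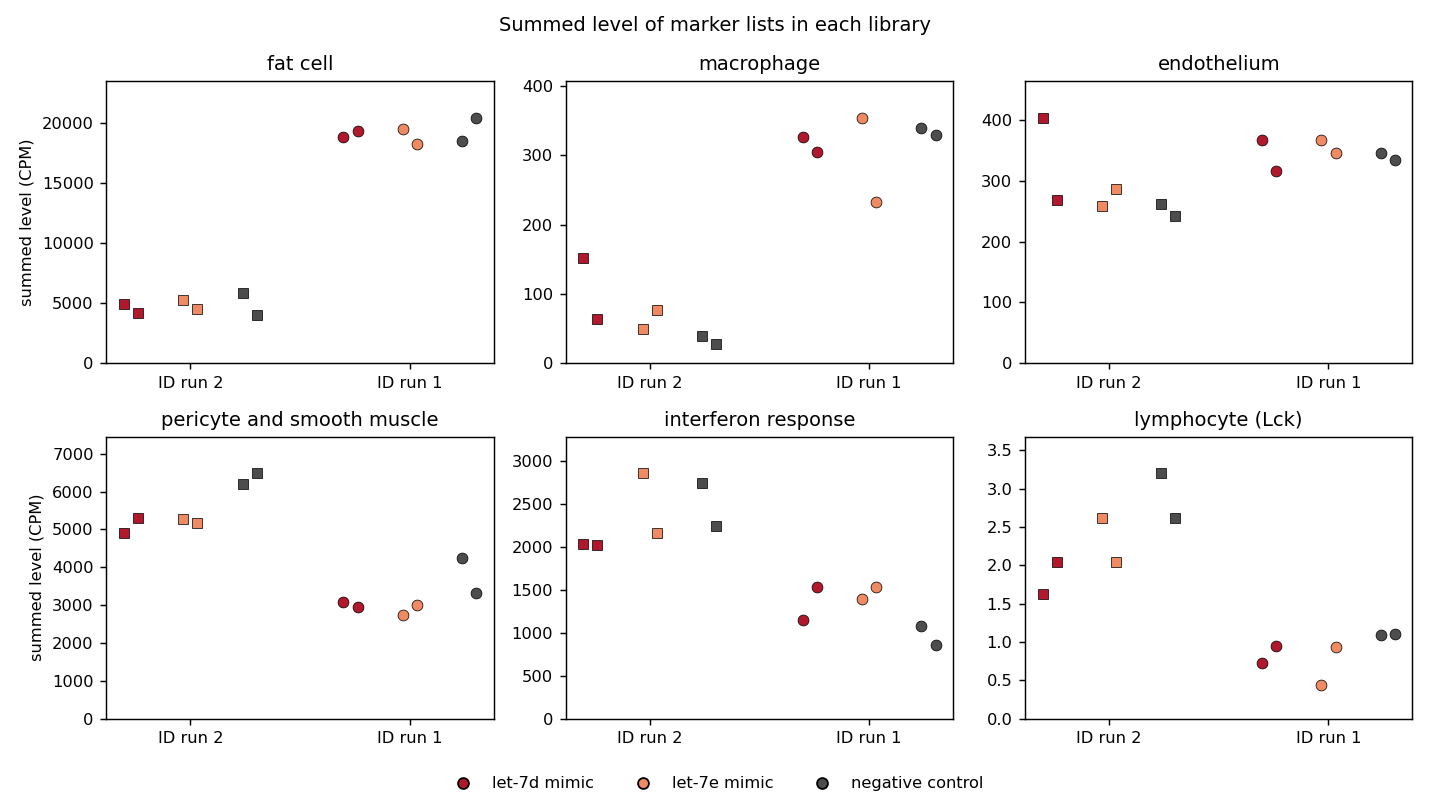
Summed level, in CPM (vertical axes, from 0), of 6 marker lists in each library, by ID run and group. Each point is 1 library. Fat cell markers lie at 4030 to 5830 CPM in ID run 2 and 18200 to 20400 CPM in ID run 1, and let-7d replicate 3 is the highest library of ID run 2 for macrophage (151 CPM) and endothelial (404 CPM) markers.

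Within the runs, 2 of 8 markers were called with let-7d in ID run 2 (Pdgfra and Dpp4, both higher, beside 8.56% of all genes, 3.29% higher and 5.26% lower) and 3 of 8 in ID run 1 (Pdgfra and Ly6a higher and Thy1 lower, beside 10.9%, 4.59% higher and 6.28% lower). With let-7e, 0 of 8 were called in ID run 2 (edgeR; 4 at an unadjusted p under 0.05; 2.48% of all genes were called, 0.914% higher and 1.56% lower) and 3 of 8 in ID run 1 (Pdgfra and Ly6a higher and Thy1 lower, beside 7.12%, 3.10% higher and 4.02% lower). A marker called in one run and not in the other is not thereby shown to differ between them. By the test of that difference, 0 of 8 markers were called for let-7d (edgeR and limma-voom; 1 at an unadjusted p under 0.05, Thy1; 0.241% of all genes) and 0 of 8 for let-7e (edgeR and limma-voom; 1 at an unadjusted p under 0.05, Thy1; 0.00635% of all genes).

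Compared as CPM per kilobase of exon, Ly6a had the highest level of the 8 in both runs. Its mean was 531 ± 113 over the libraries of ID run 2 and 211 ± 56.3 over those of ID run 1 (SD, n = 6 each). In ID run 2, Pdgfrb (50.6 ± 3.78), Pdgfra (44.9 ± 4.53) and Thy1 (43.2 ± 3.59) followed with overlapping ranges. Cd34 (4.99 ± 1.4) stood below them, and Dpp4 (1.5 ± 0.311), Pi16 (1.04 ± 0.22) and Zfp423 (1 ± 0.154) came last, each overlapping the next. In ID run 1 the order was Pdgfrb (97 ± 3.9), Pdgfra (51 ± 5.33), Thy1 (17.2 ± 4.51), Zfp423 (5.34 ± 0.477) and Cd34 (2.81 ± 0.259), with no overlap between neighbours. Dpp4 (0.404 ± 0.106) and Pi16 (0.377 ± 0.0346) overlapped at the low end there.

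After the mean of each ID run was taken off, the genes whose levels followed each marker most closely over the 12 libraries were found among 10958 genes by Pearson's r, given as a description because the libraries share groups and depth. For Pdgfra they were Nek4 (0.984), Slc10a6 (0.982) and Ankra2 (0.973), and for Pdgfrb Fam168b (0.977), Wnk1 (0.946) and Fam120a (0.942). For Cd34 they were Rapgef5 (0.974), Esam (0.953) and Gpihbp1 (0.948), of which Esam is on the endothelial list and Gpihbp1 encodes the lipase anchor of capillary cells. For Ly6a they were Rnase4 (0.974), Ifitm2 (0.966) and B2m (0.956); Ifitm2 and B2m respond to interferon. For Thy1 they were Eva1b (0.944), Myh11 (0.937) and Rps13 (0.936), of which Myh11 is on the smooth muscle list. Dpp4 had Dhx58os (0.949), Wdr45 (0.939) and Cfap20 (0.934), Pi16 had Serpinf1 (0.916), Steap3 (0.884) and Spon2 (0.857), and Zfp423 had Usp38 (0.949), Tug1 (0.938) and Snx27 (0.918).

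The 8 genes lie on 8 different chromosomes of GRCm38.p6: Pdgfra at chr5:75152292-75198215, Pdgfrb on chromosome 18, Cd34 at chr1:194938819-194961279 and Ly6a at chr15:74994877-74998031. Dpp4 lies at chr2:62330073-62412231, Pi16 at chr17:29317680-29330593, Thy1 at chr9:44043384-44048579 and Zfp423 at chr8:87661810-87959595. Genes on the opposite strand overlap Pdgfra, Cd34, Dpp4 and Pi16 in GENCODE vM21; none of them is in the count table, and the strand setting of the counts is not given in the sources used here.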

How the data were processed

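The authors deposited whole-number counts per Ensembl gene for 12 libraries, not normalized; the submitters' processing notes list STAR and the build GRCm38.p6, and no source used here gives the counter or its strand setting. Totals ran from 15071299 to 33396316 counts, and the lowest maximum CPM is 0.456. A second deposited table, of RPKM, was not used. The design text gives another number of replicates than the 4 libraries per group listed. Nothing says that replicates are separate cultures, so the p-values describe the spread between libraries alone, which could be technical. Of 15754 identifiers, 15742 matched GENCODE vM21 symbols without regard to version (15260 with the same version).

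In R 4.3.3, edgeR 4.0.16 was fitted to all 12 libraries with TMM scaling and terms for ID run and group (8 residual degrees of freedom); effects within runs and their difference came from a mean per group and run (6 residual degrees of freedom). filterByExpr removed 0 genes. P-values are two-sided and adjusted after Benjamini and Hochberg over all genes, and intervals are at 95%. CPM use TMM-scaled totals, and per-length levels divide them by the union of exons. The scripts were tested on simulated data. DESeq2 1.42.0, limma 3.58.1 (voom), other filters and scaling, no run term, a replicate block, 2 groups only, each run alone and each library left out were tried. The members and 16 further gene lists were chosen with earlier results of these data known. Named genes were the 8 markers, Hmga2, Dicer1, up to 4 called genes with the smallest p per list and comparison, the first 2 measured markers of other cell types and the 3 genes most like each marker (average log2 CPM of at least 2, prior count 2). Genes named only for a seed match were chosen after their values were seen, and let-7 targets other than Hmga2 and Dicer1 are given as counts.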

Additional observations from a re-analysis of the deposited data

How the results depend on the processing

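The 4 markers called with each mimic stayed called with the same sign under the following changes. These were DESeq2's size factors, the DESeq2 Wald test, limma-voom and a filter of at least 1 CPM in at least 4 libraries. With only the 2 compared groups fitted, 3 of 8 were called with let-7d, where Thy1 was lost, and 4 of 8 with let-7e. A fit without any filter repeats the reported one, because filterByExpr removed 0 genes. Without a term for the ID run, no marker was called with let-7d (edgeR; 0, and 1 at an unadjusted p under 0.05) or let-7e (0, and 0 unadjusted), and 7 and 0 genes in all were called (830 and 552 at an unadjusted p under 0.05); the spread between runs then enters the error. The sign of the Pdgfrb value with let-7e turned to 0.010 and that of the Ly6a difference between the mimics to 0.026. Genes called between let-7d and let-7e, 24 in the reported fit, numbered 115 with DESeq2, 1 without the run term, 5 with the replicate block and 98 with only these 2 groups; the cause was not tested. Over all genes, same-numbered libraries deviated together weakly or not at all (correlations from -0.065 to 0.19). With 2 libraries per group and run, these values cannot settle whether the numbers pair libraries. In ID run 2, replicate 3 was above replicate 4 in each group for Ly6a and below it for Pdgfrb, while for Pi16 the order differed between groups. The reported fit uses no pairing. A replicate block in edgeR would add Cd34 with let-7d (0.35, adjusted p = 0.0406) to the called markers, 5 of 8, and left 4 of 8 with let-7e.

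Leaving out each library in turn gave 1781 to 2535 genes called with let-7d, 844 to 1606 with let-7e and 3 to 38 between the mimics. Markers called ranged from 2 to 5 with let-7d, 1 to 4 with let-7e, 0 to 0 between the mimics and 8 to 8 between the runs. They ranged from 0 to 3 in ID run 2 and 1 to 3 in ID run 1 with let-7d, from 0 to 1 and 1 to 3 with let-7e, and from 0 to 1 and 0 to 0 for the difference between runs with let-7d and let-7e. The fits within runs were left-one-out after the data were seen, and there a lone library is assumed to vary like the others. Signs that turned belong to values not called: Ly6a between the mimics ran from -0.12 to 0.049, Pi16 with let-7d from -0.096 to 0.11, and with let-7e Pdgfrb from -0.030 to 0.035 and Cd34 from -0.058 to 0.12. The median SE over all genes was 0.085 with let-7d and 0.084 with let-7e, so changes of the size of those of Pdgfrb are near what these libraries can resolve.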
